A study of Homo sapiens with 3 samples.

Results

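The genes described here are 9 genes of the interferon system: STAT2, IRF9, IRF1 and IRF3, which carry the signal, and ISG15, IFIT1, IFIT3, IFI6 and SLFN5, which interferon induces. They were chosen by their symbols in the table of expression values, and all 9 were found among its 13479 genes. Their levels were read in EBC-1, a cell line from a human squamous carcinoma of the lung. Cells were electroporated with 600 pmol of a negative control siRNA, RAB11A siRNA 1 or RAB11A siRNA 2. The labels put electroporation at 72 h after plating and do not give the time from there to RNA extraction. RAB11A is a small GTPase of recycling endosomes. The assay was CAGE (cap analysis of gene expression), which counts tags from the capped 5′ ends of transcripts, so a level does not scale with transcript length and can be compared between genes. Each siRNA has 1 library. No difference described here was checked by a replicate, and every interval or standard error covers counting error only.

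Type I interferon binds its receptor, and the kinases JAK1 and TYK2 then phosphorylate STAT2, which acts with IRF9 in a transcription factor complex. That complex binds the interferon-stimulated response element (ISRE) in the promoters of induced genes. A second element, the gamma-activated site (GAS), is known from the response to interferon gamma. IRF3 is activated after viral or other foreign nucleic acid is sensed and switches on the interferon genes themselves, and IRF1 is both induced by interferon and an activator of its targets. Double-stranded RNA is a known trigger of this system, and every library here comes from cells given an siRNA, which is a short RNA duplex. Any effect that all 3 duplexes share cannot be told apart from the state of untreated cells.

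The siRNAs are shown because all comparisons rest on them. The sequences are those in the labels, read as sense strands, and capitals mark the bases that pair with the seed of the guide strand, its positions 2 to 8.
RAB11A siRNA 1: gcauccagguuGAUGGAAa
RAB11A siRNA 2: agcaagagcuuUUGCAGAa
RAB11A stood at 135 CPM (tags scaled by 1 total per library, which the genes' tags together slightly exceed) in the control library, 7.48 with siRNA 1 and 22.7 with siRNA 2, or 5.53% and 16.8% of control.

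The promoters of the induced members are shown because the ISRE is what makes a gene responsive to the complex of STAT2 and IRF9. Sequences are from RefSeq (GRCh38.p14), a newer build than the hg19 of the values, and cover the 160 bases before the annotated transcript start, 5′ to 3′ on the gene's own strand. Capitals mark ISRE matches, searched as GAAANNGAAA and its reverse complement TTTCNNTTTC, or GAS matches, searched as TTCNNNGAA, which is its own reverse complement.
ISG15 (chr1:1013337-1013496, plus strand): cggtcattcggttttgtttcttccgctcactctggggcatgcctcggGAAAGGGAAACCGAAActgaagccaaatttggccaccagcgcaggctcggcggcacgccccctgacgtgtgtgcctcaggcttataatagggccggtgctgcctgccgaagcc
IFIT1 (chr10:89392463-89392622, plus strand): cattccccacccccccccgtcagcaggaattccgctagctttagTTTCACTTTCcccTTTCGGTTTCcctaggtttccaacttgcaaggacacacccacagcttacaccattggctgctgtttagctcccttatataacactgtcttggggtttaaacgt
IFIT3, start 1 (chr10:89327837-89327996, plus strand): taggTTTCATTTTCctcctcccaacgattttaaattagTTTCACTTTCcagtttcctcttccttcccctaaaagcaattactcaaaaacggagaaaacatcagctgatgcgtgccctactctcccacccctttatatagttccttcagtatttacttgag
IFIT3, start 2 (chr10:89332369-89332528, plus strand): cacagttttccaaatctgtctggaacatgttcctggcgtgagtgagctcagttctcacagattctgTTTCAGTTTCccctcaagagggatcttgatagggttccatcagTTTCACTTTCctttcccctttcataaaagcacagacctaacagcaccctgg
IFI6 (chr1:27672193-27672352, minus strand): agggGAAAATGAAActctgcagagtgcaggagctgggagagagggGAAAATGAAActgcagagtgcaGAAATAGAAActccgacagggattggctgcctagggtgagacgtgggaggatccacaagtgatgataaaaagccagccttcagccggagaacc
IRF1 (chr5:132490774-132490933, minus strand): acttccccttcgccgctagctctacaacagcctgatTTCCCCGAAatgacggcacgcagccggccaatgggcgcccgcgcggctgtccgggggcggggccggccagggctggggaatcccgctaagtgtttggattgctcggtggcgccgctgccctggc
IRF9 (chr14:24161105-24161264, plus strand): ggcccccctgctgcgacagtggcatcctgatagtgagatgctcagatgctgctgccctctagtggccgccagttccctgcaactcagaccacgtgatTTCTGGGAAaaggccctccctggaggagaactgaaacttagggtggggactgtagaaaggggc

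ISG15, IFIT1, IFIT3 and IFI6 each held 2 or more ISRE matches in a window of 300 bases (250 before the start and 50 after), and no GAS match. In ISG15 the 2 matches overlap by 4 bases, starting 113 and 107 bases before the transcript start, and IFI6 holds 3, starting 156, 115 and 93 bases before it. IRF1 and IRF9 each held 1 GAS match, 124 and 63 bases before the start, and no ISRE match. The STAT2 window held neither sequence, and IRF3 and SLFN5 were not in the promoter table. An ISRE match was present in 3.57% of the 35116 promoters of the table and 2 or more in 0.259%, against 7.66% for a GAS match. A match is a run of letters, and binding was not measured.

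**Figure D1:**
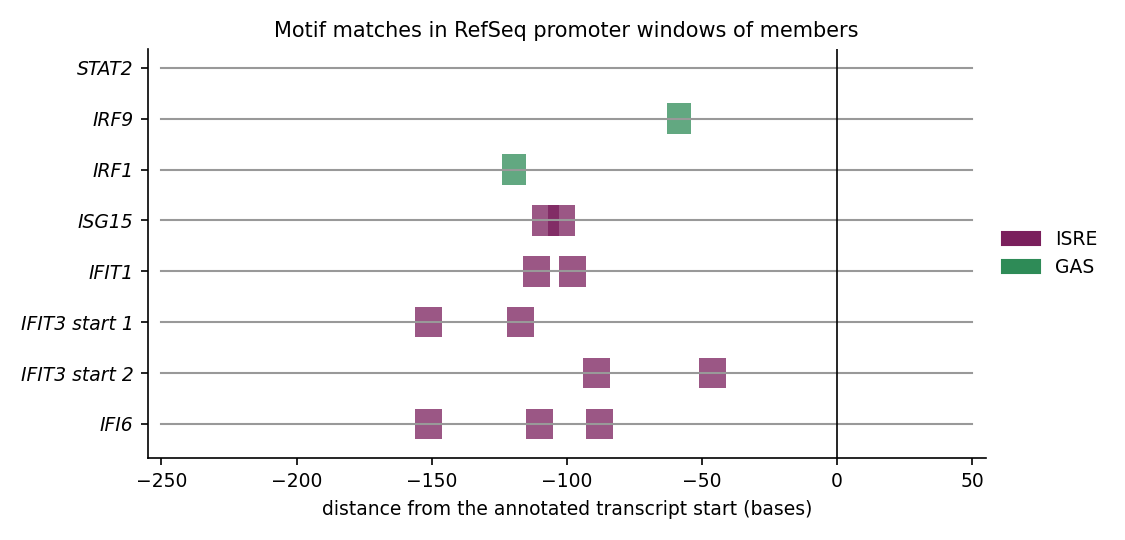
Position of ISRE (purple) and GAS (green) matches in the RefSeq promoter windows of 7 members, by distance in bases from the annotated transcript start; each grey line is 1 window of 300 bases. All ISRE matches lie between 156 and 42 bases before a start, in ISG15, IFIT1, IFIT3 (which has 2 windows) and IFI6.

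The levels of the 9 genes spanned from 2.48 to 77.0 CPM and kept nearly the same order in each library. In the control library ISG15 was the highest, at 58.4 CPM, above 74.9% of the genes listed, and IFIT3 the lowest, at 2.76 CPM, above 12.4% of them. IRF3, STAT2, SLFN5, IRF1, IFI6, IRF9 and IFIT1 lay between, in that order. The neighbours SLFN5, IRF1 and IFI6 (18.5, 17.6 and 17.3 CPM) had overlapping 95% Poisson intervals in control, as did IFIT1 and IFIT3 in every library, IRF9 and IFIT1 in both siRNA libraries, STAT2 and IFI6 with siRNA 1, and IRF1 and SLFN5 with siRNA 2. With either siRNA IFI6 moved up to the fourth place and SLFN5 down to the sixth, while the other 7 kept their places. A level is relative to a library total and averages over all cells, so fewer cells expressing a gene and less RNA per cell cannot be told apart.

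**Figure D2:**
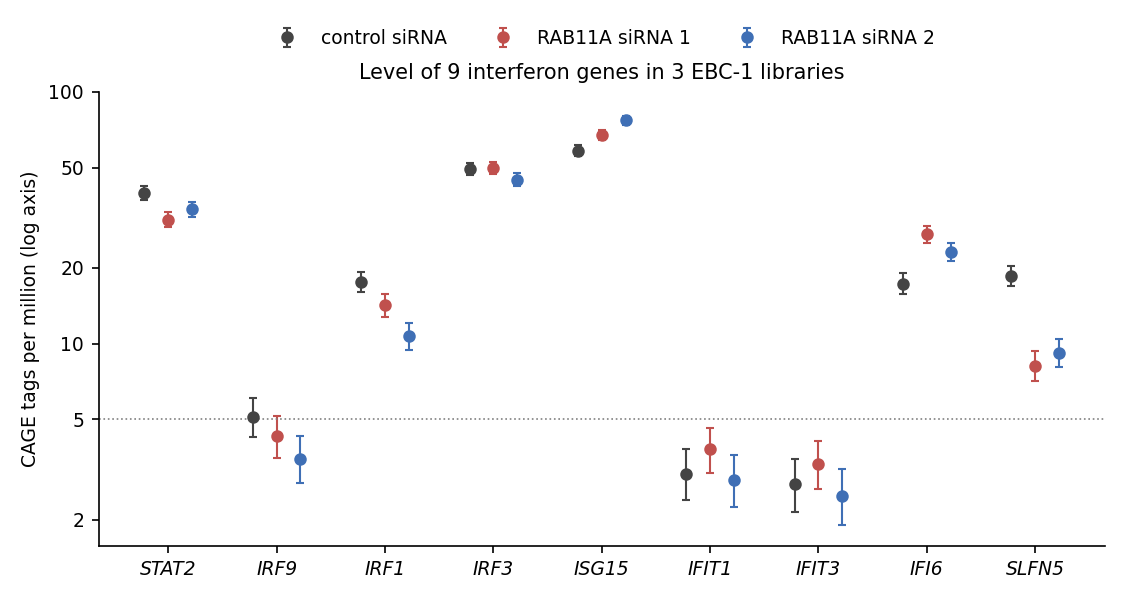
Level of each member in CPM of CAGE tags (log axis) in the control, siRNA 1 and siRNA 2 libraries, 1 point per library, with bars for the 95% exact Poisson interval of the tags; the dotted line is 5 CPM, the minimum mean for the comparison across genes. SLFN5 is lower and IFI6 and ISG15 are higher in both siRNA libraries than in control, and IRF9, IFIT1 and IFIT3 have means under 5 CPM.

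STAT2 is the transactivating subunit of its complex with IRF9. Its level was 39.6 CPM in the control library, 31.1 CPM with siRNA 1 and 34.2 CPM with siRNA 2. It was highest in control, and its tag ratios to control were 0.786 (95% exact interval 0.714 to 0.864) and 0.865 (0.788 to 0.948). Between the siRNAs the ratio (siRNA 1 over siRNA 2) of 0.909 had an interval of 0.824 to 1.003, which includes 1. The gene lies at chr12:56735381-56753987 on the minus strand (GRCh37/hg19, GENCODE), the build and annotation of the positions of all members below.

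IRF9, the DNA-binding subunit of that complex (chr14:24630443-24637252, plus strand), had 128, 107 and 87 tags in the control, siRNA 1 and siRNA 2 libraries, or 5.12, 4.28 and 3.48 CPM. Sets of 3 levels keep this library order from here on. The order was the same as for IRF1, but counting error was wider: the ratio to control was 0.836 (0.641 to 1.09) with siRNA 1 and 0.680 (0.512 to 0.899) with siRNA 2. Its mean was under 5 CPM, so it was left out of the counts across genes.

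IRF1 (chr5:131776132-131844411, minus strand) stood at 17.6, 14.2 and 10.7 CPM. It was lower in both siRNA libraries, and lower with siRNA 2 than with siRNA 1: the tag ratio was 0.809 (0.702 to 0.933) with siRNA 1, 0.607 (0.519 to 0.708) with siRNA 2, and 1.33 (1.13 to 1.57) for siRNA 1 to siRNA 2. On the log2(CPM + 1) scale the siRNA 2 difference was -0.67 with a counting standard error of 0.104, the 133rd lowest of 10788 genes. The antisense RNA IRF1-AS1, which overlaps the locus on the other strand and was counted apart, stood at 3.68, 2.76 and 2.88 CPM.

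IRF3 (chr19:50162826-50169132, minus strand) stood at 49.6, 50.0 and 44.8 CPM, the smallest spread of the 9 genes in relative terms. Its ratio to control was 1.01 (0.932 to 1.09) with siRNA 1 and 0.904 (0.833 to 0.981) with siRNA 2. BCL2L12, an apoptosis-related gene that overlaps IRF3 on the other strand, stood at 43.2, 47.5 and 40.0 CPM. Of the 31 annotated IRF3 transcripts, 1 has first 50 bases that also match elsewhere in the genome with at most 2 mismatches, and no annotated start of the other 8 members had such a copy among those that could be placed.

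Among the induced genes, ISG15, a ubiquitin-like protein that is joined to other proteins, stood at 58.4, 67.4 and 77.0 CPM (chr1:936518-949920, plus strand). Control was the lowest and siRNA 2 the highest of the 3 libraries, and none of their Poisson intervals overlapped. The tag ratio was 1.15 (1.08 to 1.24) with siRNA 1 and 1.32 (1.23 to 1.41) with siRNA 2, and 0.876 (0.820 to 0.935) for siRNA 1 to siRNA 2. On the log2(CPM + 1) scale the differences from control were 0.20 and 0.39, with counting standard errors of 0.051 and 0.049.

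IFI6, a small hydrophobic protein with antiviral and antiapoptotic roles (chr1:27992575-27998723, minus strand), stood at 17.3, 27.2 and 23.2 CPM. It was above control in both siRNA libraries and highest with siRNA 1, with ratios of 1.57 (1.39 to 1.78) and 1.34 (1.18 to 1.52). The log2(CPM + 1) difference of 0.62 with siRNA 1 (counting standard error 0.085) was the 249th highest of 10788 genes. Its 3 ISRE matches, shown above, are the most in any 1 window of the members. Both relatives of IFI6 that were listed were above control too, by different amounts: IFI27L1 stood at 8.84, 13.0 and 11.9 CPM, log2 ratios of 0.51 and 0.39, and IFI27L2 at 147.7, 155.9 and 155.4. IFI27, the most interferon-responsive gene of that family, matched no symbol in the values used here.

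IFIT1 and IFIT3, which bind foreign RNA and act together in one complex, were near the bottom of the table. IFIT1 (chr10:91152303-91166244, plus strand) stood at 3.04, 3.80 and 2.88 CPM, from 76, 95 and 72 tags. IFIT3 (chr10:91087064-91137230, plus strand) stood at 2.76, 3.32 and 2.48 CPM, from 69, 83 and 62 tags. In both genes siRNA 1 was highest and siRNA 2 lowest, but every ratio's interval included 1: for IFIT1 0.915 to 1.71 with siRNA 1 and 0.677 to 1.33 with siRNA 2, and for IFIT3 0.864 to 1.68 and 0.627 to 1.28. At this depth no difference between libraries was detectable for either gene, and a 2-fold change in either direction lies outside these intervals. Their relatives IFIT2 and IFIT5 stood higher, IFIT2 at 9.08, 7.76 and 6.16 CPM and IFIT5 at 22.3, 27.6 and 22.3.

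SLFN5, a Schlafen protein induced by type I interferon (chr17:33570090-33600674, plus strand), had 463 tags in the control library but 204 with siRNA 1 and 230 with siRNA 2, or 18.5, 8.16 and 9.20 CPM. It had the largest difference of the 9 genes in both comparisons with control. The tag ratio was 0.441 (0.372 to 0.521) with siRNA 1 and 0.497 (0.422 to 0.583) with siRNA 2. On the log2(CPM + 1) scale the differences from control were -1.09 and -0.94, with counting standard errors of 0.110 and 0.107, the 41st and 36th lowest of 10788 genes. The siRNA libraries did not differ from each other beyond counting error, at a ratio of 0.887 (0.731 to 1.08) for siRNA 1 to siRNA 2. Both ratios use the same control library, so they are not independent checks.

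**Figure D3:**
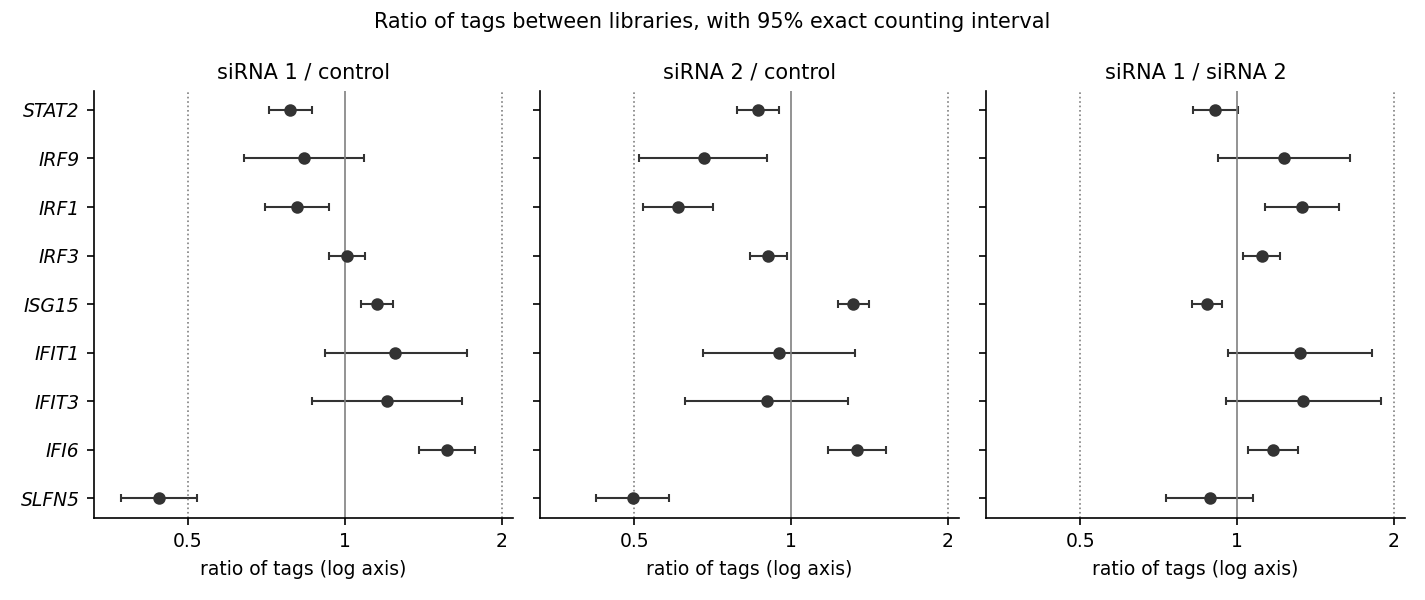
Tag ratio of each member (log axis) for siRNA 1 to control, siRNA 2 to control and siRNA 1 to siRNA 2, 1 point per gene, with bars for the 95% exact interval of counting error; dotted lines mark 2-fold. SLFN5 lies near 0.5 in both comparisons with control, and every IFIT1 and IFIT3 interval includes 1.

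Of the other Schlafen genes 3 were listed, and none stood below its control level in either siRNA library. SLFN11, which blocks replication in cells with damaged DNA, stood at 33.5, 39.3 and 33.9 CPM (log2 ratios 0.22 and 0.01). SLFN12 stood at 2.20, 4.56 and 2.76 CPM and SLFN13 at 1.28, 1.96 and 1.52, both under the minimum mean. SLFN12L, SLFN14 and SLFNL1 matched no symbol.

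The seed of each siRNA was searched for in the 3′ UTRs of the members, since a guide strand can lower transcripts through such sites. SLFN5 was the only member with a site, holding 1 for each siRNA in a 3′ UTR of 7767 bases, at bases 2266 to 2272 for siRNA 1 and 443 to 449 for siRNA 2. Both are shown with 10 bases on either side, the site in capitals.
SLFN5, siRNA 1 site: cacaaaagtaGATGGAAgacaccaccc
SLFN5, siRNA 2 site: acatggccacTTGCAGAagagcttgaa
Among 782 compared genes with a 3′ UTR of at least 5000 bases, 46.2% held a siRNA 1 site, 49.7% a siRNA 2 site and 22.4% both, against 14.6%, 16.1% and 4.25% of all 9598 compared genes searched. Over those 9598 genes the median log2 ratio to control was -0.08 with a siRNA 1 site and -0.02 without one, and -0.05 both with and without a siRNA 2 site. The part of these sites in the lower SLFN5 level was not tested.

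With the 2-fold threshold on the log2(CPM + 1) scale, 6 of the 9 members reached a mean of 5 CPM (125 tags) and were counted with 10788 genes in all. With siRNA 1, SLFN5 was the 1 member past the threshold, with a lower level, where 0.519% of all genes lay, and none was 2-fold higher, where 0.371% lay. With siRNA 2 none was past it, against 0.195% of genes higher and 0.269% lower. Between siRNA 1 and siRNA 2 none was past it either, against 0.167% higher and 0.185% lower. The exact binomial test of tags with Benjamini-Hochberg adjustment, which compares the 2 libraries and not the conditions, called far more: 2 members higher (ISG15, IFI6) and 3 lower (SLFN5, STAT2, IRF1) with siRNA 1, against 23.3% and 29.1% of all genes. With siRNA 2 it called 2 higher and 4 lower, IRF3 now among the lower, against 18.4% and 29.9%. Between the siRNAs it called 3 higher with siRNA 1 (IRF1, IRF3, IFI6) and 1 lower (ISG15), against 21.4% and 15.4%.

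Of these 6 members, 2 were above control in both siRNA libraries and 3 below in both, where 31.4% and 44.5% of all genes were. Their median log2 ratio was -0.14 with siRNA 1 and -0.17 with siRNA 2, beside -0.03 and -0.04 over all genes compared. With all 9 members the medians were 0.01 with siRNA 1 and -0.14 with siRNA 2.

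**Figure D4:**
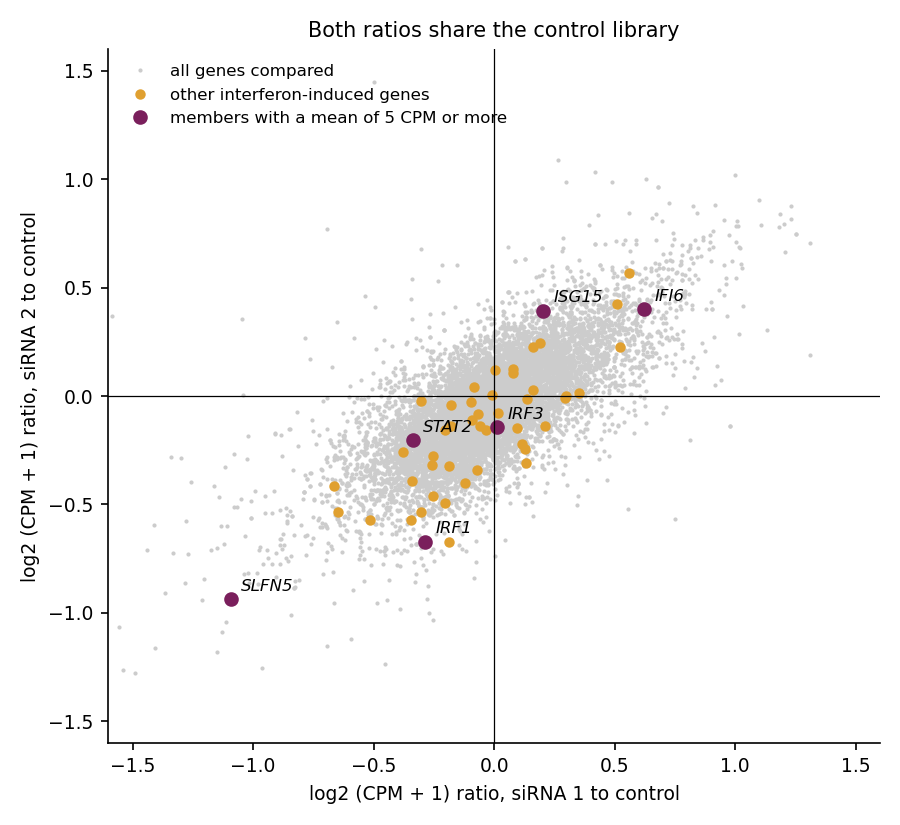
Each point is a gene whose mean reached 5 CPM, by its log2(CPM + 1) ratio to control with siRNA 1 (horizontal) and siRNA 2 (vertical); grey points are all genes compared, orange the other interferon-induced genes and purple the 6 members, and 36 genes outside the axes are not drawn. SLFN5 lies at -1.09 and -0.94, apart from the other 5 members, and IFI6 and ISG15 lie in the upper right; the axes share the control library, so a diagonal trend is built in.

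No interferon gene was listed: none of 12 symbols searched, among them IFNB1, IFNA1 and IFNL1, matched the table, in which each gene reached at least 0.52 CPM in some library. The receptors and kinases that start the pathway were listed and less than 2-fold from control. IFNAR1 stood at 50.6, 55.9 and 59.2 CPM, IFNAR2 at 20.9, 18.3 and 20.9, JAK1 at 44.3, 42.4 and 42.5 and TYK2 at 15.5, 15.5 and 14.4. The tag ratio of IFNAR1 to control was 1.10 (1.02 to 1.19) with siRNA 1 and 1.17 (1.08 to 1.26) with siRNA 2. That of IFNAR2 was 0.875 (0.770 to 0.995) with siRNA 1. Every JAK1 and TYK2 interval included 1. The receptors for interferon gamma, IFNGR1 and IFNGR2, had log2 ratios between -0.14 and -0.08, IL10RB -0.11 and 0.00, and STAT3 0.25 and -0.07. JAK2, at 1.12 to 1.52 CPM, was under the minimum mean, and IFNLR1 matched no symbol. No gene was 2-fold apart among the 10 compared, STAT2 included, and their medians were -0.08 and -0.06. With siRNA 2, 2 of the 10 were above control and 7 below, or 4 and 6 under TMM scaling. Over all genes compared these counts were 4462 and 6277, or 5416 and 5370 under TMM scaling.

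The IRF family was below control with siRNA 2 in all 4 genes compared, with a median of -0.40, while with siRNA 1 IRF3 was at 0.01 and the median was -0.19. IRF2, which represses IRF1 targets, stood at 28.2, 26.2 and 21.0 CPM, and IRF7, the amplifier of interferon production, at 7.40, 5.64 and 5.40. The siRNA 1 level was above the siRNA 2 level in all 4, which include the members IRF1 and IRF3. Of all 10788 genes compared, 5932 were higher with siRNA 1 than with siRNA 2, and 6277 were below control with siRNA 2. IRF4, IRF5 and IRF8 matched no symbol.

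Sensors of nucleic acids and their adaptors were measured because the siRNAs are RNA duplexes. Of 26 symbols, which include newer names of the same genes, 20 were listed and 14 compared. With siRNA 1, 5 were above and 8 below control, beside 4868 and 5889 of all 10788 genes compared. With siRNA 2, 3 were above and 11 below, beside 4462 and 6277. Under TMM scaling the siRNA 2 counts were 5 and 9, beside 5416 and 5370. The medians of the 14 were -0.18 and -0.12, and none of them was 2-fold apart. The 4 highest were below control in both, except that EIF2AK2 with siRNA 2 (-0.02) changed sign under TMM scaling: ADAR, the RNA-editing enzyme, at 161, 135 and 133 CPM, IFI16, a DNA sensor, at 92.0, 76.8 and 73.6, EIF2AK2, the kinase PKR, at 82.0, 66.3 and 80.6, and TBK1, the kinase that phosphorylates IRF3, at 62.6, 54.2 and 52.7. DDX58, the sensor RIG-I, stood at 23.2, 24.5 and 25.4 CPM, and IFIH1, the sensor MDA5, at 2.84, 3.16 and 2.16; both were named after their values were seen.

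ISG15 is attached to proteins by UBA7, UBE2L6 and HERC5 and removed by USP18. UBA7 matched no symbol. UBE2L6 stood at 26.6, 28.9 and 22.7 CPM, HERC5 at 22.4, 21.3 and 21.1, HERC6 at 9.04, 6.72 and 7.40, ARIH1 at 70.9, 65.5 and 71.2 and USP18 at 4.76, 4.96 and 3.92. TRIM25, a ligase that also activates RIG-I, differed most, at 56.2, 35.6 and 38.5 CPM, or log2 ratios of -0.65 and -0.53 with counting standard errors of 0.060 and 0.059. ISG15 was the 1 gene of the 6 compared that was above control in both siRNA libraries, and 3 were below in both. Of all genes compared, 31.4% were above in both and 44.5% below in both.

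Of 69 other interferon-induced genes searched, 54 were listed and 45 compared. Of all 10788 genes compared, 4868 were above and 5889 below control with siRNA 1, and 4462 and 6277 with siRNA 2. In the CPM as given, more genes below control than above is thus the background of every list. Under TMM scaling the counts over all genes were 5284 above and 5504 below with siRNA 1, and 5416 and 5370 with siRNA 2. With siRNA 1, 19 of the 45 were above and 26 below control. With siRNA 2, 13 were above and 32 below (18 and 27 under TMM scaling). In both siRNA libraries 11 of the 45 were above and 24 below, beside 31.4% and 44.5% of all genes compared. The medians over the 45 were -0.07 and -0.14, and none was 2-fold apart in any comparison. IFITM3, a membrane protein that blocks viral entry, was the highest, at 757, 968 and 764 CPM. IFITM2, its neighbour and close relative, followed the same pattern at 178, 218 and 177, and because the 2 are near-identical in parts, the division of tags between them is uncertain. LGALS3BP, a secreted glycoprotein, stood at 182, 161 and 177 CPM. With siRNA 2 the small differences of IFITM2 and LGALS3BP from control changed sign under TMM scaling. Named after their values were seen, OAS3, which makes the activator of RNase L, had log2 ratios of 0.51 and 0.42, and SAMHD1, a nucleotide hydrolase, 0.56 and 0.57. ISG20, an exonuclease, had -0.67 and -0.41, and SP110, a nuclear body protein, -0.19 and -0.67. MX1, a classical reporter of interferon action, stood at 5.88, 5.44 and 5.76 CPM, with ratio intervals that include 1.

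**Figure D5:**
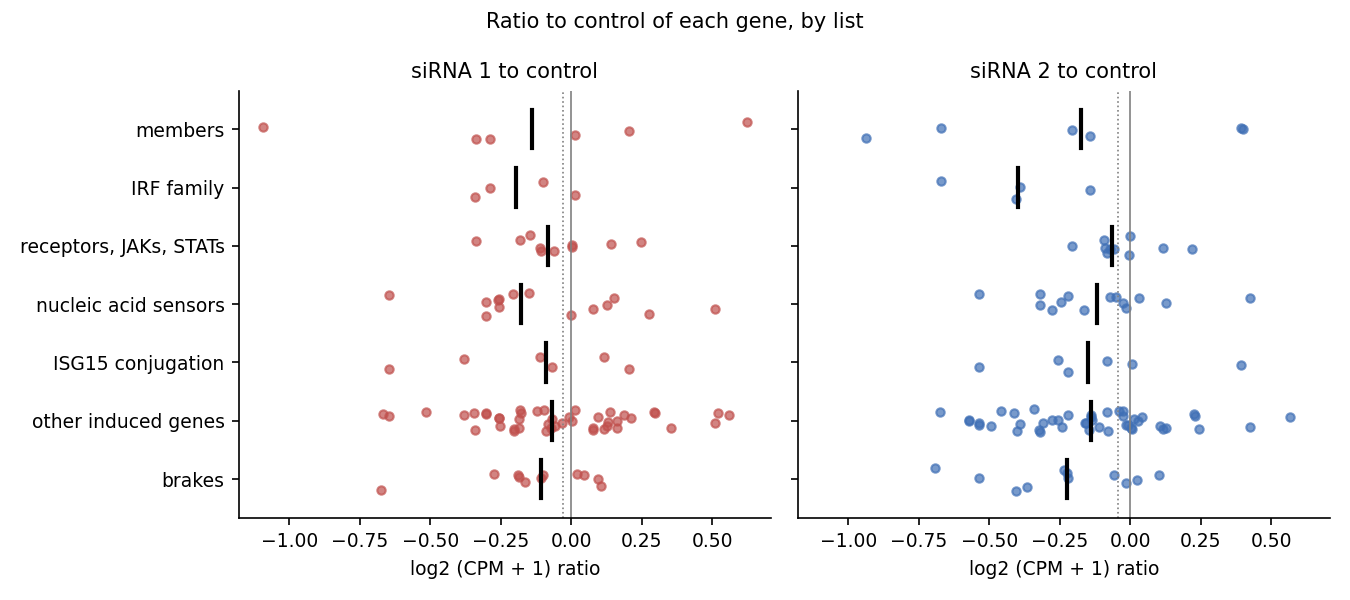
Log2(CPM + 1) ratio to control of each gene compared, by list, with siRNA 1 (left) and siRNA 2 (right); points are genes, black bars the list medians, the solid line 0 and the dotted line the median of all genes. Every list drawn spreads to both sides of 0 except the IRF family with siRNA 2, and SLFN5 is the lowest point of the members in both panels.

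Genes that restrain the pathway were more often below control than above it, and so were all genes compared in the CPM as given. Of 14 listed, 11 were compared, with medians of -0.11 and -0.23. With siRNA 1, 4 were above and 7 below, beside 4868 and 5889 of all genes. With siRNA 2, 2 were above and 9 below, beside 4462 and 6277. Under TMM scaling the siRNA 2 counts were 3 and 8, beside 5416 and 5370. IRF2BP2, a corepressor that acts with IRF2, differed most, at 38.1, 23.5 and 23.2 CPM or log2 ratios of -0.67 and -0.69. It is named here with its values known. PTPN1, a phosphatase that acts on JAK kinases, stood at 145, 154 and 155 CPM, PTPN11 at 126, 111 and 122, PTPN2 at 93.0, 81.7 and 79.4, and PIAS3, an inhibitor of STAT3, at 47.5, 39.1 and 32.5. None was 2-fold apart.

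Markers of other cell types were looked up beside these values. Epithelial keratins were high, KRT18 at 386, 475 and 394 CPM, and the 7 epithelial and squamous markers listed summed to between 1025 and 1209 CPM. EPCAM, also of that list, was low at 4.20, 4.28 and 3.72 CPM, under the minimum mean. CDH1 matched no symbol, and neither did KRT5, TP63 and SOX2, which define the squamous lineage. Of 9 leukocyte markers 1 was listed, CD68, a lysosomal protein not restricted to leukocytes, at 45.2, 21.1 and 31.4 CPM. Of 7 fibroblast and endothelial markers 2 were listed, COL1A1 and COL1A2, at 1.04 to 2.28 CPM. The part of other cells in the members' levels was not tested.

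For the 3 members farthest from 0, the genes with the most similar pair of log2 ratios to control were sought in the 9146 genes whose mean reached 10 CPM. With 3 libraries such likeness is weak: 61 genes lay within a distance of 0.1 of IFI6 and 16 within it of IRF1. The nearest to IFI6 were KIF14, a mitotic kinesin, SNRPA1, a splicing protein, and CCND3, cyclin D3. Those nearest to IRF1 were TERF2, a telomere-binding protein, ADRBK1, a receptor kinase, and ATXN1L. No gene lay within 0.1 of SLFN5. Its nearest were RAB43, a GTPase of the Golgi, at 34.8, 15.6 and 16.4 CPM, NNMT, nicotinamide N-methyltransferase, at 27.6, 11.4 and 13.9, and PABPC1L at 35.5, 16.8 and 19.7.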

How the data were processed

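The authors deposited a table of CPM (scaled CAGE tags) per gene and strand, with 1 column for each of 3 libraries. The submitters' processing notes name hg19, BWA and HISAT2; for their roles and versions, the counting tool and the annotation, the sources used here give nothing. Within 0.005 CPM, 100% of the deposited CPM values were whole multiples of 0.04 CPM, which gave 24999950 tags in each library and the tag counts used for intervals (Poisson, and exact binomial for ratios). The tags over genes sum to more than that (25174787 in control, 25204585 with siRNA 1 and 25137457 with siRNA 2), so a CPM is not a plain share of 1 total, and the sources used here do not say why. Why the totals are equal is not given, and whether tags are separate molecules is not known. A count of 0 would allow 0.12 CPM (3 tags).

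The main measure was log2((CPM + 1) ratio) over genes whose mean reached 5 CPM, with 2-fold as threshold; the pseudocount of 1 CPM understates low genes. No p across genes was used as a main result. The members, gene lists and tests were chosen with earlier results of these data known. Named genes were all members, the 4 highest of each list, all genes compared of the small families, and others as stated; some listed genes are not reported here. Alternatives were other pseudocounts, filters, TMM (edgeR 4.0.16, R 4.3.3), median ratios and the exact binomial test, which called 2518 genes higher and 3143 lower with siRNA 1 and 1983 and 3230 with siRNA 2. Transcript starts (first 50 bases, 2 mismatches) were searched in GRCh37 with minimap2 2.31. The calculations were tested on simulated data. Python 3.11.15 with scipy 1.17.1 did the rest.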

Additional observations from a re-analysis of the deposited data

How the results depend on the processing

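Across 138 recalculated log2 ratios of the 6 members that reached a mean of 5 CPM, none changed sign and 137 stayed within their counting error. Part of these could not move, because the filter decides only whether a gene is counted and leaves its ratio unchanged. Only another pseudocount or scaling could move a ratio. The 1 that moved beyond counting error was SLFN5 with siRNA 1, at -0.84 with a pseudocount of 5 CPM. The number of members at least 2-fold lower with siRNA 1 was 1, and it was 0 with that pseudocount and 0 at a minimum mean of 20 CPM, which leaves 4 members and drops SLFN5. With siRNA 2 it was 0, and 1 (SLFN5) with no pseudocount, a setting chosen after seeing the data. The exact binomial test of tags called 2 members higher and 3 lower with siRNA 1, 2 higher and 4 lower with siRNA 2, and 3 higher and 1 lower between siRNA 1 and siRNA 2, since it answers to counting error and has no minimum size. TMM and median-ratio scaling left all other counts of members as they were. The median over members moved with the filter: with siRNA 1 it was -0.14, but 0.01 when the minimum mean was 1 CPM and 0.11 when it was 20 CPM. With siRNA 2 it was -0.17, and 0.13 when the minimum was 20 CPM. No list median of the report changed sign under another scaling except that of the members between the siRNAs, at 0.01 and -0.01. The median over all genes compared with siRNA 2 also changed sign, from -0.04 to 0.001 under TMM scaling. Counts over all genes moved with the filter and pseudocount: with siRNA 1 the 40 higher and 56 lower became 20 and 30 at a pseudocount of 5 CPM, 18 and 33 at a minimum mean of 20 CPM, and 87 or 95 lower at a minimum of 1 CPM or none. With siRNA 2 the 21 higher and 29 lower became 8 and 13 at 20 CPM, and the lower 18 at that pseudocount, 49 at 1 CPM and 54 with no filter. Between the siRNAs 18 higher and 20 lower became 6 and 5 at 20 CPM, and the lower 32 and 33 at 1 CPM and with no filter. No paired analysis was possible because each group has 1 library. Leaving out a replicate was not possible for the same reason. Depth limits IFIT1, IFIT3 and IRF9, which rest on 62 to 128 tags.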

Other observations

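Of the 54 other interferon-induced genes listed, 41 had a RefSeq promoter window, and 26 of these (63.4%) held an ISRE match, beside 3.63% of the 7551 genes compared that had a window. The 21 of them compared and holding a match had median log2 ratios to control of 0.02 with siRNA 1 and -0.08 with siRNA 2, 11 and 6 of them above control. The 12 without a match had medians of -0.19 and -0.27, with 3 and 4 above control. The ranges overlapped, from -0.67 to 0.52 with a match and from -0.65 to 0.56 without one with siRNA 1. Of the compared genes with 2 or more matches, OAS3, IFITM3, IFIT5 and DDX60L were above control with both siRNAs. HERC5, DDX60 and TRIM21 were below it with both. With siRNA 1 the tag ratio intervals of OAS3, IFITM3 and IFIT5 lay above 1, and the others included 1. With siRNA 2 the OAS3 interval (1.16 to 1.63) lay above 1. Those of DDX60 (0.579 to 0.974) and TRIM21 (0.813 to 0.982) lay below 1, and the others included 1. In the control, siRNA 1 and siRNA 2 libraries OAS3 had 9.64, 14.2 and 13.3 CPM. HERC5, with 3 matches, had 22.4, 21.3 and 21.1, and DDX60 5.64, 5.32 and 4.24. These are descriptions over genes, which are not replicates, and the difference between genes with and without a match was not tested.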
